A study of Mus musculus with 6 samples.

Results

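The constitutive proteasome genes followed here are 33 in number. They are the 7 genes of the alpha ring (Psma1 to Psma7) and the 7 of the beta ring (Psmb1 to Psmb7) of the 20S core, the 6 ATPase genes (Psmc1 to Psmc6) and 12 non-ATPase genes of the 19S cap, and Pomp, which encodes a core assembly factor. They were picked by gene symbol from the 36706 rows that each deposited table holds. All 33 had a row and all 33 were tested, and the lowest count of any of them in any library was 899, for Psmc5.

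The proteasome is the barrel-shaped protease that degrades most short-lived and damaged proteins of the cytosol and nucleus after they have been tagged with ubiquitin. In the core, outer alpha rings gate the entry pore and inner beta rings carry the cutting sites; in the cap, ATPases unfold the substrate and thread it into the core, while non-ATPase subunits bind ubiquitin chains, remove them and hold the cap together. Transcription of the whole gene set is known to be raised by the factor NRF1, encoded by Nfe2l1, when proteasome capacity falls short, and of part of it by NRF2, encoded by Nfe2l2. In cells given interferon-γ, inducible core subunits can replace the constitutive cutting subunits in newly built proteasomes, which changes the peptides made for display on class I molecules.

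RNA was sequenced from wild-type mouse bone marrow cells grown in GM-CSF at 20 ng/mL, with the medium changed on day 3 and day 5, and labelled as dendritic cells. The cells were given IFN-γ with 4-octyl itaconate (IFN-γ+4-OI, 3 libraries), a cell-permeable ester of the metabolite itaconate, or IFN-γ alone (3 libraries). All 6 libraries therefore come from cells exposed to IFN-γ, and levels without it were not analysed here. The labels give neither dose nor duration of the treatments, nor the animals behind each library, and their titles name macrophages where the cell type field names dendritic cells. The p-values below measure the spread between these libraries, which may be technical.

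Total counts per library were between 19656368 and 29244717, and the first principal component, which separated the groups, held 79.5% of the variance. The quasi-likelihood test of edgeR, run on 14011 genes, called 6736 of them (48.1%) at a Benjamini-Hochberg adjusted p under 0.05, 3181 higher and 3555 lower with 4-OI. That split moves with the scaling: it was 1719 (12.3%) against 5452 with libraries scaled by total counts, and 1194 (8.52%) against 5711 on the deposited TPM. Of 10 conventional dendritic cell markers, 1 was higher and 7 were lower with 4-OI. Their summed level was 3622 to 4380 CPM (counts scaled to library size with TMM factors) in IFN-γ+4-OI libraries and 4686 to 5457 CPM in IFN-γ libraries, and none of them was at 0 in every library. Macrophage markers summed to 2698 to 2839 CPM in IFN-γ+4-OI libraries and 2126 to 2204 CPM in IFN-γ libraries, with 2 of 8 higher and 2 lower and a median log2 fold change of −0.30. Monocyte markers summed to 366 to 548 CPM in IFN-γ+4-OI libraries and 1128 to 1485 CPM in IFN-γ libraries, with all 5 lower. Sums of dendritic cell and monocyte markers thus lay lower in IFN-γ+4-OI libraries, without overlap. Cd74 made the largest part of the dendritic cell sum, with 2407 to 3062 CPM in IFN-γ+4-OI libraries and 2736 to 3281 CPM in IFN-γ libraries. Its ranges overlapped, and it was not called (edgeR adjusted p = 0.305). The macrophage sum lay higher while the median of its markers was below 0. Neutrophil markers, with 2 of 7 higher and 4 lower, had a median log2 fold change of −0.30. They summed to 1520 to 2201 CPM in IFN-γ+4-OI libraries and 984 to 1632 CPM in IFN-γ libraries, ranges that overlap. S100a8 averaged 1099 CPM in IFN-γ+4-OI libraries and 569 CPM in IFN-γ libraries. S100a9 averaged 629 CPM in IFN-γ+4-OI libraries and 773 CPM in IFN-γ libraries, and was not called. Mast cell and basophil markers summed to 87.7 to 95.5 CPM in IFN-γ+4-OI libraries and 297 to 338 CPM in IFN-γ libraries, with all 5 tested lower. B cell, T and NK cell and erythroid markers summed to at most 10.1 CPM in any library. The part of these shifts in the results below was not tested.

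Nearly the whole gene set was raised in cells given 4-OI. Of the 33 genes, 32 were higher in IFN-γ+4-OI libraries (edgeR, adjusted p under 0.05), against 22.7% of all genes tested, and the remaining gene, Psmd8, a non-ATPase subunit, missed the threshold. None was lower, against 25.4% of all genes tested. None was lower with DESeq2 or limma-voom either, and none at an unadjusted p under 0.05 in edgeR. The median log2 fold change of the 33 genes was 0.95 and its range 0.28 to 1.37, beside a median of −0.01 over all genes tested, with quartiles of −0.46 and 0.35. The change was moderate in size: 30 genes reached 1.5-fold and 11 reached 2-fold. For all 33 the lowest IFN-γ+4-OI library stood above the highest IFN-γ library, which was so for 28.9% of all genes tested; a further 30.6% had groups apart in the other direction, 59.5% in all. In bulk RNA, a change in the mix of cells and a change in RNA per cell cannot be told apart. Scaled by total counts, 29 of the 33 were higher with a median of 0.69, where the median of all genes was −0.27. On the TPM scale 29 were higher with a median of 0.56, where that of all genes was −0.29.

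**Figure D1:**
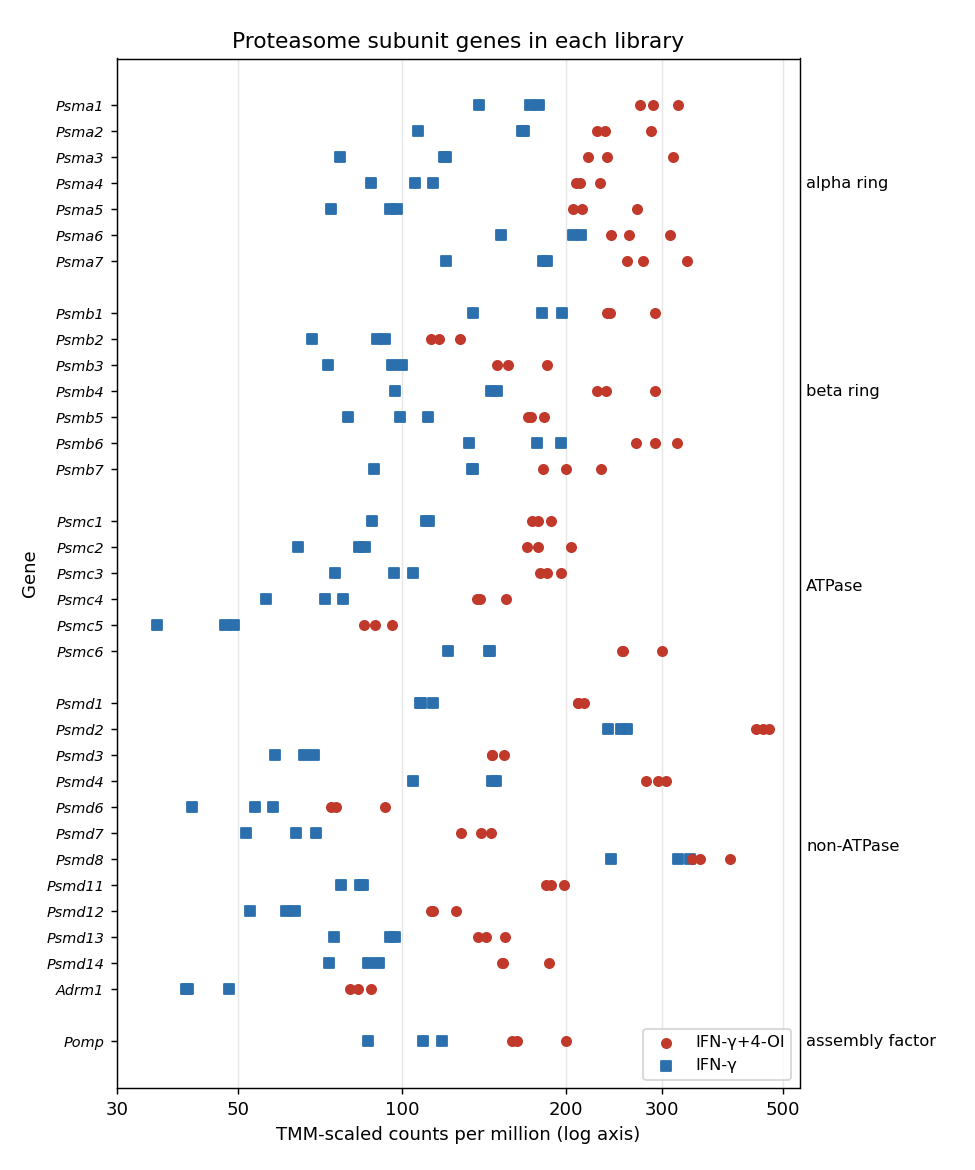
TMM-scaled CPM (log axis) of the 33 genes by class in the 3 IFN-γ+4-OI libraries and the 3 IFN-γ libraries, 1 point per library. The points of the groups do not overlap for any gene, and Psmd8 comes closest, with 341 CPM in its lowest IFN-γ+4-OI library and 338 CPM in its highest IFN-γ library.

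The classes overlapped in the size of their change. The median log2 fold change was 0.85 for the alpha ring (range 0.51 to 1.37), 0.80 for the beta ring (0.51 to 0.95), 1.02 for the ATPases (0.80 to 1.24) and 0.97 for the non-ATPase subunits (0.28 to 1.21). Taken by particle, all 14 core genes were higher, with a median of 0.84, and 17 of 18 cap genes were higher, with a median of 0.98. The medians of core and cap thus lay closer to each other than the genes within either, and no difference between classes was tested.

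**Figure D2:**
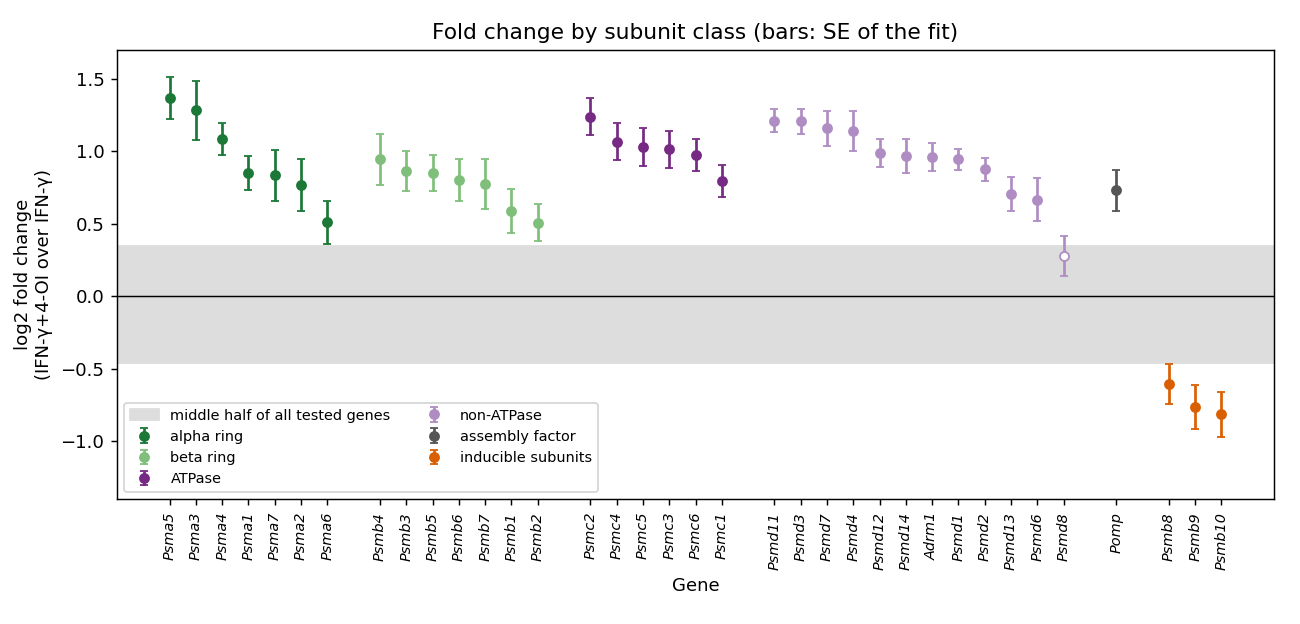
log2 fold change (IFN-γ+4-OI over IFN-γ) of each of the 33 genes with its SE from edgeR, grouped by class and ordered by size within it, with the 3 inducible subunits at the right, the quartiles of all genes tested as a grey band and an open symbol where the test was not passed. All 33 lie above 0, and the class medians run from 0.80 in the beta ring to 1.02 in the ATPases, while single genes run from 0.28 for Psmd8 to 1.37 for Psma5.

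All 7 alpha ring genes were higher with 4-OI. Psma5 showed the largest rise of all 33 genes: it had 206, 214 and 270.2 CPM in the IFN-γ+4-OI libraries, against 74.1, 98.1 and 95.2 CPM in the IFN-γ libraries. It was 2.58-fold higher (log2 1.37 ± 0.15 SE, edgeR adjusted p = 1.66e-04). Psma4 had 209, 213 and 231 CPM in the IFN-γ+4-OI libraries, against 87.7, 114 and 106 CPM in the IFN-γ libraries. In both genes IFN-γ replicate 1 was the lowest of all libraries, and the gap between groups exceeded the range within each. Psma4 was 2.12-fold higher (log2 1.08 ± 0.11, edgeR adjusted p = 1.34e-04). Psma1 had 289, 274 and 321 CPM in the IFN-γ+4-OI libraries, against 139, 179 and 172 CPM in the IFN-γ libraries, a 1.81-fold rise (edgeR adjusted p = 6.24e-04). Psma3 rose 2.43-fold, Psma7 1.79-fold and Psma2 1.70-fold, with edgeR adjusted p-values of 0.00125, 0.00537 and 0.00901. These subunits share the alpha fold, and the ring they form docks the cap.

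Psma6 changed least in the ring. It had 242, 261 and 311 CPM in the IFN-γ+4-OI libraries, against 152, 214 and 206 CPM in the IFN-γ libraries. The groups did not overlap, but IFN-γ replicates 2 and 3 lay closer to the lowest IFN-γ+4-OI library than to IFN-γ replicate 1. Psma6 was 1.42-fold higher (log2 0.51 ± 0.15, edgeR adjusted p = 0.0242). That call was lost without IFN-γ+4-OI replicate 2 (edgeR adjusted p = 0.0570), without IFN-γ+4-OI replicate 3 (0.0892), with total-count scaling (0.134) and on the TPM scale (limma, 0.189).

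All 7 beta ring genes were higher, and these include the 3 that carry the cutting sites. Psmb5, the subunit that cuts after hydrophobic residues, had 170.2, 172 and 182 CPM in the IFN-γ+4-OI libraries, against 79.8, 112 and 99.2 CPM in the IFN-γ libraries. It was 1.80-fold higher (log2 0.85 ± 0.12, edgeR adjusted p = 8.49e-04). Psmb6, which cuts after acidic residues, had 269, 292 and 319.9 CPM in the IFN-γ+4-OI libraries, against 133, 196 and 177 CPM in the IFN-γ libraries. The groups did not overlap, and Psmb6 was 1.74-fold higher (edgeR adjusted p = 0.00271). Psmb7, which cuts after basic residues, rose 1.71-fold to 204 CPM, against 119 CPM in IFN-γ libraries (edgeR adjusted p = 0.00695). The cutting subunits thus rose by similar factors, 1.71 to 1.80.

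The other 4 beta genes encode ring subunits without a cutting site. Psmb3 had 149.6, 156 and 185 CPM in the IFN-γ+4-OI libraries, against 73.3, 100.1 and 96.1 CPM in the IFN-γ libraries, a 1.82-fold rise (edgeR adjusted p = 0.00138). Psmb4 rose 1.93-fold (edgeR adjusted p = 0.00296), the largest change in the ring, and Psmb2 1.42-fold (edgeR adjusted p = 0.0116), the smallest. Psmb1 had 237, 241 and 292 CPM in the IFN-γ+4-OI libraries, against 135, 197 and 180.4 CPM in the IFN-γ libraries. As in Psma6, IFN-γ replicate 1 stood well below the other libraries of its group. Psmb1 was 1.50-fold higher (log2 0.59 ± 0.15, edgeR adjusted p = 0.0133). The Psmb1 call was lost without IFN-γ+4-OI replicate 3 (edgeR adjusted p = 0.0540), with total-count scaling (0.0602) and on the TPM scale (limma, 0.0505). The Psmb2 call was lost with total-count scaling (0.0989) and on the TPM scale (limma, 0.159).

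All 6 ATPases of the cap base were higher and kept their calls under every alternative run. Psmc2 had 178, 169.6 and 204 CPM in the IFN-γ+4-OI libraries, against 64.5, 85.4 and 83.4 CPM in the IFN-γ libraries. It was 2.36-fold higher (log2 1.24 ± 0.13, edgeR adjusted p = 1.51e-04). Psmc4 had 138, 139 and 155 CPM in the IFN-γ+4-OI libraries, against 56.2, 77.9 and 72.1 CPM in the IFN-γ libraries, and Psmc6 had 254, 254 and 299.8 CPM in the IFN-γ+4-OI libraries, against 121, 145 and 145 CPM in the IFN-γ libraries. In each of them every IFN-γ+4-OI library exceeded the highest IFN-γ library by more than 1.5 times. Psmc4 was 2.10-fold and Psmc6 1.96-fold higher (edgeR adjusted p = 3.20e-04 and 2.17e-04), and Psmc3 and Psmc5 rose 2.02-fold and 2.05-fold. Psmc1 changed least, with 173, 178 and 188 CPM in the IFN-γ+4-OI libraries, against 88.0, 111 and 112 CPM in the IFN-γ libraries, a 1.74-fold rise (edgeR adjusted p = 5.99e-04). The ATPases form a single ring with 1 copy of each gene's product. Their log2 fold changes (0.80 to 1.24) covered a narrower range than those of the alpha ring (0.51 to 1.37). So did those of the beta ring (0.51 to 0.95).

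The non-ATPase subunits held the most precisely measured changes. Psmd11, a lid subunit that bridges cap and core, had 184, 188 and 198 CPM in the IFN-γ+4-OI libraries, against 77.3, 84.7 and 83.8 CPM in the IFN-γ libraries. It was 2.32-fold higher (log2 1.21 ± 0.08, edgeR adjusted p = 1.40e-05). Psmd3, another lid subunit, had 146, 154 and 147 CPM in the IFN-γ+4-OI libraries, against 58.4, 66.2 and 68.9 CPM in the IFN-γ libraries, a 2.31-fold rise (edgeR adjusted p = 2.43e-05). Within each group the libraries lay close together in both genes. Psmd1, a scaffold of the base, had 211, 216 and 210.2 CPM in the IFN-γ+4-OI libraries, against 108, 108 and 114 CPM in the IFN-γ libraries. It was 1.93-fold higher (log2 0.95 ± 0.07, edgeR adjusted p = 2.79e-05). Psmd2, the other base scaffold, which docks shuttle proteins, averaged 459 ± 12.3 CPM in IFN-γ+4-OI libraries and 250.1 ± 10.1 CPM in IFN-γ libraries (SD, n = 3 each), the highest mean CPM of the 33 genes in IFN-γ+4-OI libraries.

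The subunits that read and remove ubiquitin rose as well. The ubiquitin receptors Psmd4 and Adrm1 rose 2.20-fold and 1.95-fold, with edgeR adjusted p-values of 3.13e-04 and 1.37e-04. Psmd14, the metalloprotease that strips ubiquitin chains from substrates, averaged 164 ± 19.1 CPM in IFN-γ+4-OI libraries and 83.7 ± 8.93 CPM in IFN-γ libraries (SD, n = 3 each; 1.96-fold, edgeR adjusted p = 3.20e-04). Psmd7, its partner in the lid, rose 2.23-fold (edgeR adjusted p = 1.48e-04). The lid subunits Psmd12, Psmd13 and Psmd6 rose 1.98-fold, 1.63-fold and 1.59-fold.

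Psmd8, a lid subunit, was the exception. It had 341, 353 and 401 CPM in the IFN-γ+4-OI libraries, against 241, 338 and 321 CPM in the IFN-γ libraries. IFN-γ replicates 2 and 3 lay almost level with IFN-γ+4-OI replicates 1 and 2. IFN-γ replicate 1 stood well below them and IFN-γ+4-OI replicate 3 above them. The fold was 1.22 (log2 0.28 ± 0.14) and did not pass the test (edgeR adjusted p = 0.130). On the TPM scale its log2 difference was −0.090. Psmd8 was thus the only gene of the 33 whose sign changed under any alternative run.

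Pomp, the chaperone that helps immature cores mature, had 159, 163 and 200.1 CPM in the IFN-γ+4-OI libraries, against 86.8, 118 and 109 CPM in the IFN-γ libraries. It was 1.66-fold higher (log2 0.73 ± 0.14, edgeR adjusted p = 0.00339), within the range of the core subunits it assembles.

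The 33 genes also shared an order among the libraries of 1 group. All 33 were lowest in IFN-γ replicate 1 among the IFN-γ libraries, as were 44.0% of all genes tested and 55.5% of genes called higher. Among the IFN-γ+4-OI libraries 29 were highest in replicate 3, as were 42.1% of all genes tested and 51.4% of genes called higher. IFN-γ replicate 1 stood apart over all genes as well: on the second principal component (10.7% of the variance) it was at 32.0, against −19.1 and −16.8 for IFN-γ replicates 2 and 3. The summed level of the 33 genes ran from 6481 to 7529 CPM in IFN-γ+4-OI libraries and from 3125 to 4163 CPM in IFN-γ libraries. With IFN-γ replicate 1 and IFN-γ+4-OI replicate 3 both left out, 32 genes were called higher, with a median log2 fold change of 0.79. Calls over all genes grew in that setting, to 4601 higher and 4695 lower of 14086 tested. With all libraries they were 3181 higher and 3555 lower of 14011.

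The median spread between libraries differed by class, but the ranges of the classes overlapped in both groups and no difference was tested. The SD as a share of the mean CPM had a median of 13.0% in IFN-γ+4-OI libraries and 17.7% in IFN-γ libraries for the alpha ring. For the beta ring it was 11.4% in IFN-γ+4-OI libraries and 18.6% in IFN-γ libraries. For the ATPases it was 6.37% in IFN-γ+4-OI libraries and 15.6% in IFN-γ libraries, and for the non-ATPase subunits 5.08% in IFN-γ+4-OI libraries and 10.6% in IFN-γ libraries. Psmd1 had the tightest values, at 1.51% in IFN-γ+4-OI libraries and 3.08% in IFN-γ libraries. Core genes other than Psma3 are mostly short: across the 33 genes the spread correlated with the exon length given in the tables (Spearman's rho −0.37 in IFN-γ+4-OI libraries and −0.49 in IFN-γ libraries), as did the log2 fold change (rho 0.51). These are correlations across genes of the same 6 libraries, so the points are not independent, and the part of transcript length in the results was not tested.

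**Figure D3:**
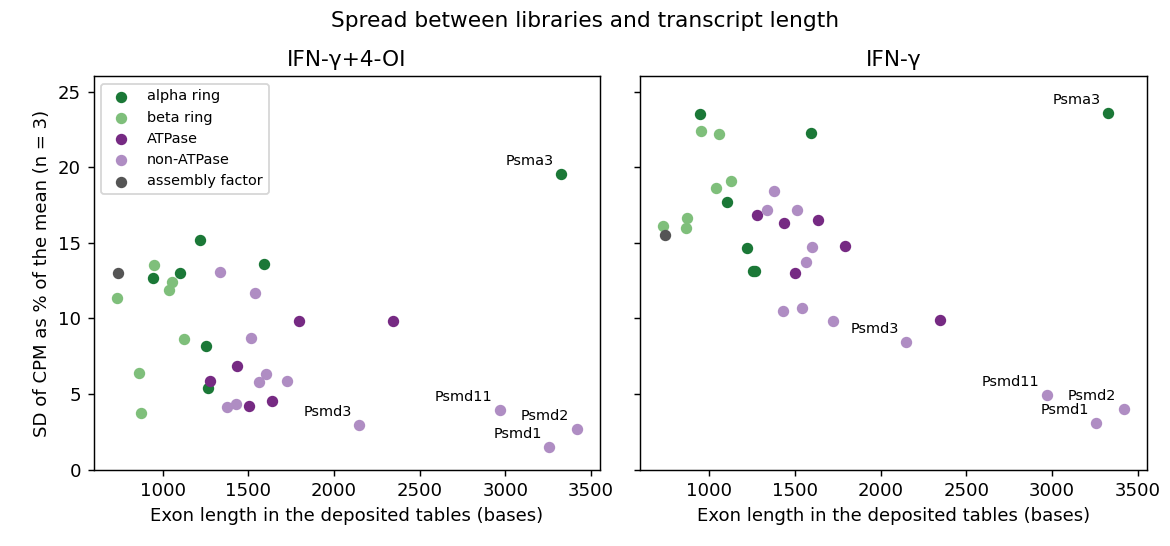
SD of CPM as a percentage of the mean (n = 3) against exon length in bases, 1 point per gene coloured by class, with IFN-γ+4-OI libraries on the left and IFN-γ libraries on the right. The long non-ATPase genes Psmd1, Psmd2 and Psmd11 have the smallest spread in IFN-γ libraries, and Psma3 is a long gene with a wide spread in both groups.

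Promoter sequence was examined because the genes moved together. RefSeq windows of 300 bases (250 before to 50 after the start, GRCm38.p6) were found for 27 of the 33 genes, 29 windows in all. The core letters of the antioxidant response element, TGACNNNGC, to which NRF1 and NRF2 bind with small MAF partners, were searched on both strands. They were in 5 of the 29 windows (17.2%), against 4071 of 32851 windows of all genes (12.4%). A CCAAT box (CCAAT, both strands) was in 11 of the 29 (37.9%), against 37.4% of all windows. Neither share stood far from that of all promoters, and a match of letters is not a binding site. The 5 genes with TGACNNNGC were Psmd12, Adrm1, Psmc6, Psmb5 and Psmb6.

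The windows below are those of the 3 genes with TGACNNNGC that had the smallest adjusted p, and of Psmd8, which did not pass the test. They are given 5′ to 3′ on the gene's strand, with TGACNNNGC or its reverse complement in capitals.
Psmd12, chr11:107479278-107479577, + strand: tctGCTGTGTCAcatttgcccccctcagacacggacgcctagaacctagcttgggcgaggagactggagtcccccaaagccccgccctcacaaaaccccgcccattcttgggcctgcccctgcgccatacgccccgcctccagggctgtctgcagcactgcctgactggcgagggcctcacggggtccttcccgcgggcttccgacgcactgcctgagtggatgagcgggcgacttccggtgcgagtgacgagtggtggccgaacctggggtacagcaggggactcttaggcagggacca
Adrm1, chr2:180171338-180171637, + strand: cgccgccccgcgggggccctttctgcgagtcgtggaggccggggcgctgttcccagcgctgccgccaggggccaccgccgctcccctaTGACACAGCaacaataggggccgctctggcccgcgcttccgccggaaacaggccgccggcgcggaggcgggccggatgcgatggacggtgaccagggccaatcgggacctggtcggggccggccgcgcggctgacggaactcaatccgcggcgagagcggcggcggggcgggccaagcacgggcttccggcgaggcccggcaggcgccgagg
Psmc6, chr14:45329574-45329873, + strand: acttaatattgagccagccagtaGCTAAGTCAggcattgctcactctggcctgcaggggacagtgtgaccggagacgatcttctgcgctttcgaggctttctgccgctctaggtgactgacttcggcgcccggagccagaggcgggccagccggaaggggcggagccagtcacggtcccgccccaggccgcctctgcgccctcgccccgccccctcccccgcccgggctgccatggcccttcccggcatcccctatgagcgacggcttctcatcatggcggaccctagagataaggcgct
Psmd8, chr7:29180624-29180923, - strand: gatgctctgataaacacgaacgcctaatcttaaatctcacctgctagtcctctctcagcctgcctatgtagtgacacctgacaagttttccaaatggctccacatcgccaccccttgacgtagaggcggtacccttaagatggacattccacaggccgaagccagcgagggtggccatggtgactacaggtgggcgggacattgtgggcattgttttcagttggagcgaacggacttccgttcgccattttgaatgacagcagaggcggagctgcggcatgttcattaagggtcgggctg
Psmd12 and Adrm1 hold the same letters on the motif's strand, TGACACAGC, at −247 to −239 and at −162 to −154 from the start, and Psmc6 holds TGACTTAGC at −227 to −219. In Psmb5 the match TGACGTCGC lies at −47 to −39 and in Psmb6 TGACGGAGC at −9 to −1. The Psmd8 window holds no TGACNNNGC. The fold changes of the 5 genes with a match were 1.98 for Psmd12, 1.95 for Adrm1, 1.96 for Psmc6, 1.80 for Psmb5 and 1.74 for Psmb6, within the range of the genes without one.

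Levels of different genes were compared per length, on the deposited TPM scale (the share of a library's transcripts, computed on the tables' exon lengths, with no scaling between libraries). Together the 33 genes made up 8833 ± 170 TPM in IFN-γ+4-OI libraries and 6412 ± 369 TPM in IFN-γ libraries (SD, n = 3 each), which is 0.883% of transcripts in IFN-γ+4-OI libraries and 0.641% in IFN-γ libraries. Core genes were the more abundant. The median gene of the beta ring had 393 TPM in IFN-γ+4-OI libraries and 281 TPM in IFN-γ libraries, and that of the alpha ring 332 TPM in IFN-γ+4-OI libraries and 232 TPM in IFN-γ libraries. ATPases and non-ATPase subunits had medians of 191 and 138 TPM in IFN-γ+4-OI libraries, and of 119 and 87.6 TPM in IFN-γ libraries.

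Genes of 1 particle did not stand at 1 level. Psmb4 was the highest in IFN-γ+4-OI libraries, with 466 ± 19.7 TPM in IFN-γ+4-OI libraries and 313 ± 39.1 TPM in IFN-γ libraries. Psmd8 was the highest in IFN-γ libraries, with 425 ± 8.62 TPM in IFN-γ+4-OI libraries and 453 ± 30.1 TPM in IFN-γ libraries. The lowest were Adrm1 in IFN-γ+4-OI libraries and Psmd11 in IFN-γ libraries, so that the highest gene exceeded the lowest 4.49-fold in IFN-γ+4-OI libraries and 7.12-fold in IFN-γ libraries. Psma3 was low for the alpha ring, with 135 ± 13.7 TPM in IFN-γ+4-OI libraries and 72.3 ± 10.1 TPM in IFN-γ libraries, and its exon length of 3325 bases is the longest in its class. The order of the genes was much alike in both groups (Spearman's rho 0.96 across the 33 gene means, a description). The mean TPM of a core gene over that of a cap gene was 1.90, 1.93 and 2.10 in the IFN-γ+4-OI libraries, against 1.92, 2.14 and 2.11 in the IFN-γ libraries. These ratios overlapped between the groups.

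**Figure D4:**
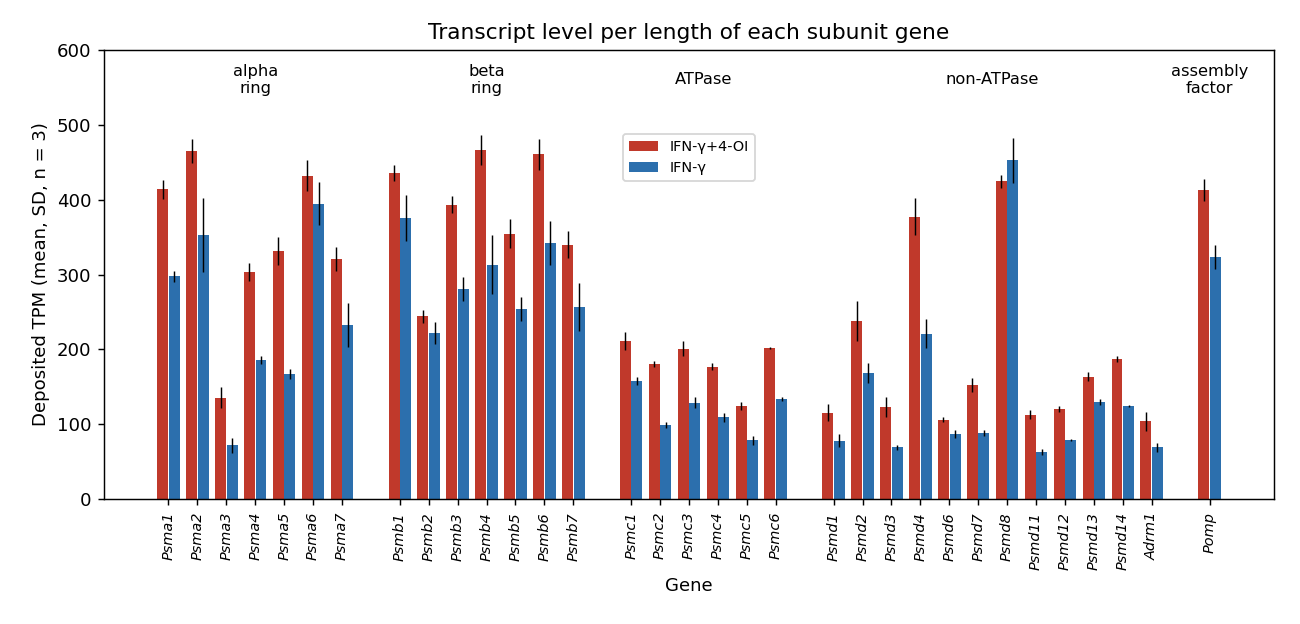
Deposited TPM of each of the 33 genes by class, as bars of the mean with the SD (n = 3) in IFN-γ+4-OI and IFN-γ libraries. Core genes reach 466 TPM (Psmb4, IFN-γ+4-OI), most cap genes stay below 250 TPM, and Psmd8 is the only gene whose IFN-γ bar is the taller.

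The inducible cutting subunits moved the other way. Psmb8, which takes the place of Psmb5, had 156, 161 and 179 CPM in the IFN-γ+4-OI libraries, against 200.5, 286 and 268 CPM in the IFN-γ libraries (log2 −0.60 ± 0.14, edgeR adjusted p = 0.00799). Psmb9, which takes the place of Psmb6, and Psmb10, which takes that of Psmb7, changed by −0.76 ± 0.15 and −0.81 ± 0.16 on the log2 scale (edgeR, adjusted p = 0.00380 and 0.00343). All 3 were called lower, as were 25.4% of all genes tested. The tissue-specific Psma8 did not pass the test and stood near 1.48 CPM in IFN-γ+4-OI libraries and 1.37 CPM in IFN-γ libraries.

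The ratio of inducible to constitutive transcript, on the TPM scale, was therefore lower with 4-OI in all 3 pairs. Psmb8 over Psmb5 was 0.653, 0.664 and 0.701 in the IFN-γ+4-OI libraries, against 1.79, 1.82 and 1.92 in the IFN-γ libraries. Psmb9 over Psmb6 was 0.233, 0.234 and 0.234 in the IFN-γ+4-OI libraries, against 0.682, 0.663 and 0.729 in the IFN-γ libraries. Psmb10 over Psmb7 was 0.108, 0.1003 and 0.0922 in the IFN-γ+4-OI libraries, against 0.304, 0.297 and 0.298 in the IFN-γ libraries. Each ratio in IFN-γ+4-OI libraries was thus between 33.4% and 36.5% of that in IFN-γ libraries, and the groups stood far apart relative to the spread within them. A two-sided exact permutation test gave p = 0.1 for each pair, the smallest that 3 against 3 libraries allow. Only for Psmb8 over Psmb5 did the ratio cross 1. The inducible transcript exceeded the constitutive one in all 3 IFN-γ libraries and in none of the IFN-γ+4-OI libraries. Psmb5 has 2 pseudogene copies and Psmb6 has 1, by the limits given below. Reads shared with copies were not measured and could affect the level of these ratios.

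**Figure D5:**
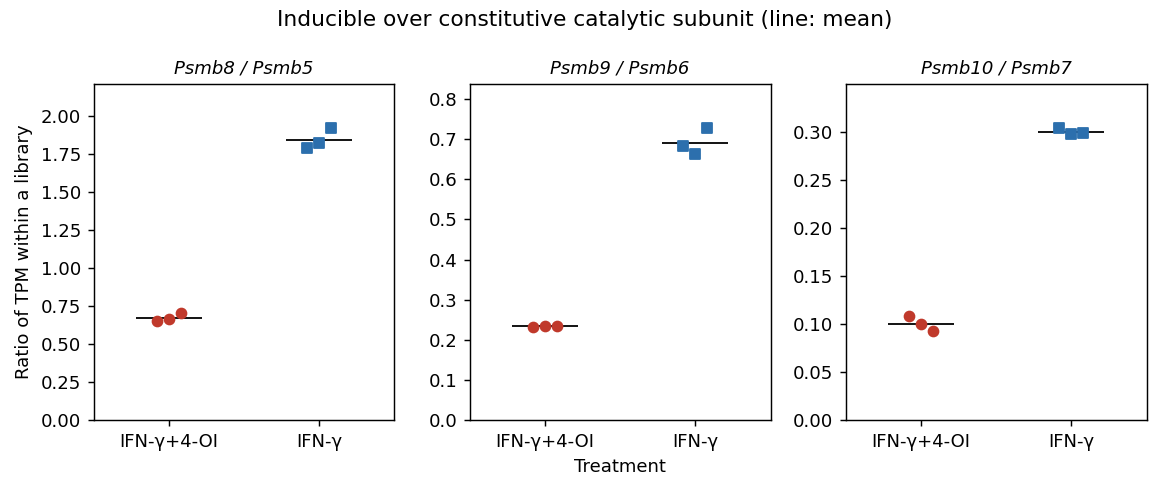
Ratio of deposited TPM of the inducible to the constitutive subunit gene for the 3 pairs, each on its own axis from 0, 1 point per library, IFN-γ+4-OI left of IFN-γ. For Psmb8 over Psmb5 the mean is 0.673 in IFN-γ+4-OI libraries and 1.85 in IFN-γ libraries, and no pair overlaps between groups.

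Genes of the other caps and of the core's inhibitor had no shared direction. Of 5 activator and inhibitor genes, 2 were higher and none lower (edgeR; 22.7% and 25.4% of all genes tested), with a median log2 fold change of 0.02; at an unadjusted p under 0.05, 1 of them, Psme1, was lower. Psme4, the nuclear activator PA200, and Psmf1, the inhibitor PI31, changed by 0.49 ± 0.13 and 0.35 ± 0.08 on the log2 scale (edgeR, adjusted p = 0.0164 and 0.00959). The Psme4 call was lost without IFN-γ+4-OI replicate 1 (0.0570) or replicate 2 (0.0502), and neither call held with total-count scaling. In that setting none of the 5 was higher and 3 were lower, Psme1 and Psme2 among them. Of all genes tested there, 12.3% were higher and 38.9% lower. On the TPM scale Psmf1 changed sign. Psme1 and Psme2, the interferon-inducible activator PA28, had log2 fold changes of −0.34 ± 0.15 and −0.29 ± 0.17 that did not pass the test. Both were called lower without IFN-γ replicate 1 (log2 −0.49 for Psme1 and −0.46 for Psme2, edgeR adjusted p = 0.00156 and 0.00478), and over all settings that left out libraries Psme1 lay between −0.57 and −0.23 and Psme2 between −0.57 and −0.19.

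Of 7 dedicated assembly chaperones, 2 (28.6%) were higher and none lower, against 22.7% and 25.4% of all genes tested, with a median of 0.27. These were Psmd5, which holds ATPases during base assembly (1.79-fold, edgeR adjusted p = 1.52e-04), and Psmd9, another base chaperone (1.42-fold, edgeR adjusted p = 0.00968). Psmd9 lost its call with total-count scaling (0.0986) and on the TPM scale (limma, 0.333). On that scaling and on the TPM scale 1 of the 7 was higher and 1 lower. Of all genes tested, 12.3% were higher and 38.9% lower with total-count scaling, and 8.52% and 40.8% on the TPM scale. Without IFN-γ replicate 1 there were 2 chaperones higher and 1 lower.

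Most genes for proteins that dock on the proteasome or bring it substrates were higher. Of 10 such genes, 8 were higher and none lower (median 0.47), where 22.7% of all genes tested were higher. With total-count scaling 5 were higher, where 12.3% of all genes were, and on the TPM scale 3, where 8.52% were. Ecpas, a proteasome scaffold, averaged 444 ± 18.1 CPM in IFN-γ+4-OI libraries and 194 ± 27.7 CPM in IFN-γ libraries (2.28-fold, edgeR adjusted p = 9.56e-05). The ubiquilin shuttle Ubqln2 rose 2.22-fold (edgeR adjusted p = 1.64e-04), and Usp14, the deubiquitinase that trims chains on the cap, 1.61-fold (edgeR adjusted p = 1.86e-04). The shuttle Rad23b and the ubiquilin Ubqln4 rose 1.45-fold and 1.52-fold, and neither passed on the TPM scale.

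Of 10 genes that regulate proteasome transcription, 7 were higher and none lower (median 0.47), again beside 22.7% and 25.4% of all genes tested. With total-count scaling 5 of them were higher, and on the TPM scale 3, where 12.3% and 8.52% of all genes tested were. Nfe2l1, which encodes the factor best known for this gene set, averaged 247 ± 14.9 CPM in IFN-γ+4-OI libraries and 199 ± 10.3 CPM in IFN-γ libraries (SD, n = 3 each). Its change of 1.24-fold (log2 0.31 ± 0.08, edgeR adjusted p = 0.0164) was smaller than that of every proteasome gene that passed the test. The Nfe2l1 call was lost with total-count scaling (edgeR adjusted p = 0.687), on the TPM scale, where its sign turned, and without any 1 of IFN-γ replicate 2, IFN-γ replicate 3, IFN-γ+4-OI replicate 1 and IFN-γ+4-OI replicate 2 (0.0501 to 0.0755). Nfe2l2 averaged 349.9 ± 19.1 CPM in IFN-γ+4-OI libraries and 227 ± 9.87 CPM in IFN-γ libraries, a 1.54-fold rise (edgeR adjusted p = 5.24e-04). The transcript of NRF1's relative, Nfe2l3, stood near 0.524 CPM in IFN-γ+4-OI libraries and 0.596 CPM in IFN-γ libraries.

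Genes for proteins that process NRF1 did not pass the test. Ddi2, the protease that releases it, had a log2 fold change of −0.60 ± 0.33, and Ngly1, which removes its sugars, of 0.16 ± 0.10 (edgeR adjusted p = 0.170 and 0.249). The small MAF partners passed it: Mafg averaged 295 ± 5.68 CPM in IFN-γ+4-OI libraries and 126 ± 3.43 CPM in IFN-γ libraries (2.34-fold, edgeR adjusted p = 9.40e-06), and Maff and Mafk rose 2.02-fold and 1.65-fold. Bach1, a repressor at the same DNA elements, rose 1.71-fold (edgeR adjusted p = 8.33e-04). Keap1, the adaptor that marks NRF2 for degradation, changed by 0.23 ± 0.08 on the log2 scale (edgeR adjusted p = 0.0360), and that value was −0.024 with total-count scaling. The Keap1 call was also lost without any 1 of IFN-γ replicate 2, IFN-γ replicate 3, IFN-γ+4-OI replicate 1 and IFN-γ+4-OI replicate 2 (edgeR adjusted p of 0.0649 to 0.123). The calls of Mafk and Bach1 were lost on the TPM scale.

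For scale, 4 NRF2 targets outside the proteasome, Hmox1, Nqo1, Gclm and Txnrd1, had log2 fold changes of 3.46, 2.76, 3.25 and 2.23. Each exceeded the largest change among the 33 proteasome genes, 1.37 for Psma5.

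Of 8 genes for the unfoldase VCP, its cofactors and an autophagy receptor, 7 were higher and none lower (median 0.97), beside 22.7% and 25.4% of all genes tested. With total-count scaling and on the TPM scale 5 were higher, where 12.3% and 8.52% of all genes tested were. Vcp, which extracts ubiquitinated proteins and passes them to the proteasome, had 531, 550.1 and 496 CPM in the IFN-γ+4-OI libraries, against 248, 246 and 239 CPM in the IFN-γ libraries. It was 2.15-fold higher (edgeR adjusted p = 2.51e-05), a change as large as those of the ATPases of the cap. Its cofactor genes Ufd1 and Nploc4 rose 2.05-fold and 1.47-fold, and the second call was lost with total-count scaling and on the TPM scale. Zfand5 and Zfand2a, zinc finger proteins that act on the proteasome, rose 2.73-fold and 1.87-fold. Sqstm1, the autophagy receptor p62, rose more than any proteasome gene, with 3089, 3118 and 3259 CPM in the IFN-γ+4-OI libraries, against 530.1, 612 and 605 CPM in the IFN-γ libraries (5.42-fold, edgeR adjusted p = 2.49e-06). With DESeq2 and limma-voom no gene of the activator, assembly, docking, regulator and VCP lists was lower, and at an unadjusted p under 0.05 in edgeR Psme1 alone was. Without IFN-γ replicate 1, 2 activator genes and 1 assembly chaperone were called lower.

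The 33 genes lie on many chromosomes and do not form a single cluster. The most are 6 on chromosome 11, 5 on chromosome 2 and 4 on chromosome 7. Reads shared with copies could affect some values. In GENCODE M21, 13 of the 33 genes have pseudogene copies of at least 90% identity over at least 200 bases, 26 copies in all, with 7 for Psmb3 and 3 for Psma3. None of these pseudogene copies has a row under its GENCODE symbol in the deposited tables, and rows under other names were not searched. Transcripts of 9 other genes match 6 of the 33 genes by the same limits, and 5 of them have a row under their symbol. They include A730017L22Rik, 97.9% identical to Psmd11 over 1501 bases, with a mean of 1.28 CPM in IFN-γ+4-OI libraries and 0.968 CPM in IFN-γ libraries. Nek6, identical to Psmb7 over 255 bases, had higher means, 97.4 CPM in IFN-γ+4-OI libraries and 162 CPM in IFN-γ libraries. Its mean was thus lower with 4-OI, where that of Psmb7 was higher. Sirt3, identical to Psmd13 over 329 bases, had means between those of A730017L22Rik and Nek6 in both groups. The protein-coding Gm9774, 99.8% identical to Adrm1 over 1358 bases, has no row under that symbol. Reads shared with any of these copies were not measured. Psma4 shares 9.74% of its exon bases with another gene on the opposite strand, which had a mean of 0.0878 CPM in IFN-γ+4-OI libraries and 0.0113 CPM in IFN-γ libraries.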

How the data were processed

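Per the labels' protocols, stranded mRNA libraries were made from total RNA: 3 IFN-γ+4-OI and 3 IFN-γ libraries, their groups and numbers taken from the titles. The authors deposited 1 table per library with whole-number counts, TPM and FPKM for the same 36706 rows, per the file headers. HISAT2 and the build mm10 are named in the submitters' processing notes. How reads were counted, with or without strand, and on which annotation is not given in the sources used here. The deposited FPKM values were not tested. Gene starts in the tables differed from RefSeq GRCm38 for all 33 genes although all 33 chromosomes matched, so only chromosomes are taken from the tables, and promoters come from RefSeq.

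Counts were tested as deposited with edgeR 4.0.16 in R 4.3.3: filterByExpr with a minimum count of 10, TMM factors, the robust quasi-likelihood test over all 14011 genes kept, and Benjamini-Hochberg adjustment at 0.05. The script was tested on simulated data. CPM are TMM-scaled; on that scale 3 counts correspond to 0.102 to 0.163 CPM, which covers counting error only. Deposited TPM values, which carry no scaling between libraries, served to compare genes per length and, as log2(TPM + 1) in limma 3.58.1, as an alternative added after seeing the data. Other alternatives were other scalings (edgeR's RLE and upper quartile factors, total counts), filters, DESeq2 1.42.0, limma-voom, an adjusted p of 0.01, the replicate number as a block, and libraries left out. Copies were searched with BLAST 2.17.0. Replicates differed beyond sampling noise (lowest chi-square per gene 4.07).

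The members were taken by gene symbol, a rule that uses no measured value, but they and all lists were chosen with earlier results of these data known. The results of 1 list are not reported here. All 33 members are named; of the other lists, the genes past 0.05, all regulators and the inducible subunits may be named, and otherwise the gene with the smallest adjusted p. Values of every library are given for the 3 genes with the smallest and the 1 with the largest adjusted p in each class, and for Pomp; other genes printed that way, and Psme1 and Psme2, were chosen after their values were seen.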

Additional observations from a re-analysis of the deposited data

How the results depend on the processing

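The number of proteasome genes called higher was between 29 and 33 over all alternatives run, and none was called lower under any of them. It was 29 with total-count scaling, on the deposited TPM and at an adjusted p of 0.01, and 30 to 32 with 1 library left out; 29 genes passed under every alternative at its own threshold. Scaling moved the size: the median log2 fold change of the 33 genes was 0.69 with total-count scaling and 0.56 on the TPM scale, where the median of all genes was −0.27 and −0.29. The counts over all genes were 1719 higher and 5452 lower with total-count scaling, and 1194 higher and 5711 lower on the TPM scale. At an adjusted p of 0.01 they were 2079 higher, by construction fewer. With 1 library left out they ran from 2460 to 3791 higher and from 2815 to 4044 lower. The sign turned for 7 of the genes named: with total-count scaling Psma8 (−0.14), Keap1 (−0.024) and Ngly1 (−0.11); on the TPM scale Psmd8 (−0.090), Psma8 (−0.15), Psmf1 (−0.037), Nfe2l1 (−0.071), Keap1 (−0.15) and Ngly1 (−0.22); without IFN-γ replicate 1 and IFN-γ+4-OI replicate 3 Psma8 and Ddi2. Over all settings that left out libraries Psma8 ran from −0.0053 to 0.23 and Ddi2 from −0.79 to 0.038, both ends with the turned sign being those without that pair of libraries. The cause was not tested. The lowest count of a proteasome gene in any library was 899, and the part of depth was not tested.

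The groups share replicate numbers, but the labels do not say that the numbers pair the libraries. Deviations of same-numbered libraries correlated at 0.26, −0.10 and 0.19, and those of the other pairs at −0.34 to 0.31. With 3 libraries a group, these values cannot decide whether the numbers pair the libraries. With the replicate number as a block, 33 proteasome genes were called higher, Psmd8 included (edgeR adjusted p = 0.0275), and 3588 genes were higher and 3925 lower overall. The block also called Psme1 and Psme2 (edgeR adjusted p = 0.0102 and 0.0280) and Ddi2 (0.0161) lower, so that 2 of 5 activator and inhibitor genes, 1 of 7 assembly chaperones and 1 of 10 regulators were lower. Not every library correlated best with its own number.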
